A study of Homo sapiens with 8 samples.

Results

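The genes described are 10 human aldehyde dehydrogenases (ALDH), taken by their symbols from the 25435 symbols of one expression table. They are ALDH1A1, ALDH1A2, ALDH1A3, ALDH1B1, ALDH2, ALDH3A1, ALDH3A2, ALDH3B1, ALDH9A1 and ALDH18A1. They were selected on measured values of these data: ALDH1A2 was chosen by the difference of its level between the study's experiments, and ALDH3B1 by its difference with guides against ZRSR2. Those differences are therefore given below as description, with no p-value. A filter on low counts passed 9 of the 10, and ALDH1A3 was left out of the tests.

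RNA was sequenced from SET-2, an established line with megakaryoblastic features, derived from essential thrombocythemia that had transformed to leukemia, in a series whose title concerns ZRSR2 loss in a JAK2V617F-driven neoplasm. All cells received a PLKO5 GFP virus carrying 1 guide RNA. In the 4 knockout libraries, labelled ZRSR2 KO, the guide was directed at ZRSR2, a splicing factor of minor introns. In the 4 control libraries, labelled ZRSR2 wildtype, it was a non-targeting guide. Each genotype was represented by 2 guides in each of 2 experiments, so that every combination of guide and experiment is 1 library. By the protocol, RNA of biological replicate 1 was taken 20 days after transduction, and that of biological replicate 2 at 25 days. Experiment numbers were read as those replicate numbers, which is an assumption, so the experiment and the day cannot be told apart. The labels do not describe single-cell clones, and whether the cultures of different guides were otherwise independent is not stated, so p-values measure the spread between these libraries. The 4 libraries of an experiment are not repeats of that experiment. A p-value between experiments therefore does not show whether the difference would recur in a further experiment.

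Aldehyde dehydrogenases oxidise reactive aldehydes to acids with NAD or NADP. The ALDH1A enzymes make retinoic acid, the ligand of the nuclear receptors RAR and RXR, from retinaldehyde, and ALDH activity is widely used to mark haematopoietic stem and progenitor cells. Other family members clear acetaldehyde or the aldehydes that arise from lipids, and a few have dedicated roles in carnitine and proline synthesis.

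The ZRSR2 guides are shown because the genotype comparison rests on them; the promoters of ALDH1A2 and ALDH3B1 are shown because these genes differed most between the experiments among those tested. Both promoters are the 250 bases before the first listed RefSeq start, on build GRCh38.p14, written 5′ to 3′ on the gene's strand with each CG dinucleotide in capitals. The ALDH1A2 window is chr15:58065712-58065961 on the minus strand, and that of ALDH3B1 is chr11:68008297-68008546 on the plus strand.
ZRSR2 guide 1: tgacgtttcccgagaaacca
ZRSR2 guide 2: acagttcctagacttctatg
ALDH1A2 promoter: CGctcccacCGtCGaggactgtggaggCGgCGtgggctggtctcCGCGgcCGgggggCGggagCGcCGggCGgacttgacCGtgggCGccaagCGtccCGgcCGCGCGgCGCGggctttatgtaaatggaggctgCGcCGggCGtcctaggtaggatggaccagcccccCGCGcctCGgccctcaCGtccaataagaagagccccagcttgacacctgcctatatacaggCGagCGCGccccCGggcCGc
ALDH3B1 promoter: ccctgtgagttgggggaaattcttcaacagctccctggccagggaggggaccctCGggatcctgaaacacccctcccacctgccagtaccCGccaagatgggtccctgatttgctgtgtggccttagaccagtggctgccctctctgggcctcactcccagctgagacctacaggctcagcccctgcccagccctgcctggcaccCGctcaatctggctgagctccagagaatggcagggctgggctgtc

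CG reads the same on both strands, so either gives the same count. The ALDH1A2 window held 33 CG dinucleotides and the ALDH3B1 window 3. Over 35116 RefSeq promoter windows of this length the median was 11, with quartiles of 3 and 23, and 93.9% held at least 1. Each of these genes has a second listed start, whose window held 1 CG for ALDH1A2 and 11 for ALDH3B1. Of the 10 genes, 8 had a window in the RefSeq table. The counts describe the sequence alone, since DNA methylation was not measured.

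Library totals ran from 31106042 to 71521173 expected counts, the largest being control replicate 3, and 14898 genes were tested. Libraries are numbered alike in both genotypes: replicates 1 and 2 hold guides 1 and 2 from experiment 1, while replicates 3 and 4 hold the same guides from experiment 2. Levels are in CPM, the count scaled to a library total of 1000000 counts. ZRSR2, the targeted gene, had 29.4, 22.9, 28.3 and 18.7 CPM in the knockout libraries, in that order, and 37.9, 39.2, 39.7 and 41.1 CPM in the controls. The genotypes did not overlap, with the knockout libraries averaging 62.9% of the controls. Where libraries are averaged by experiment below, the 4 comprise both genotypes. Of 10 megakaryocytic markers, 8 averaged at least 1 CPM. GP1BB, a defining platelet gene, was at 0 in all 8 libraries, while GP1BA was at 87.6 to 110 CPM and GP9 at 20.9 to 34.9 CPM. Whether that 0 reflects the cells or the counting of this symbol was not tested. The summed level of lymphoid markers was at most 0.0676 CPM, with MS4A1 at 0.

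**Figure D1:**
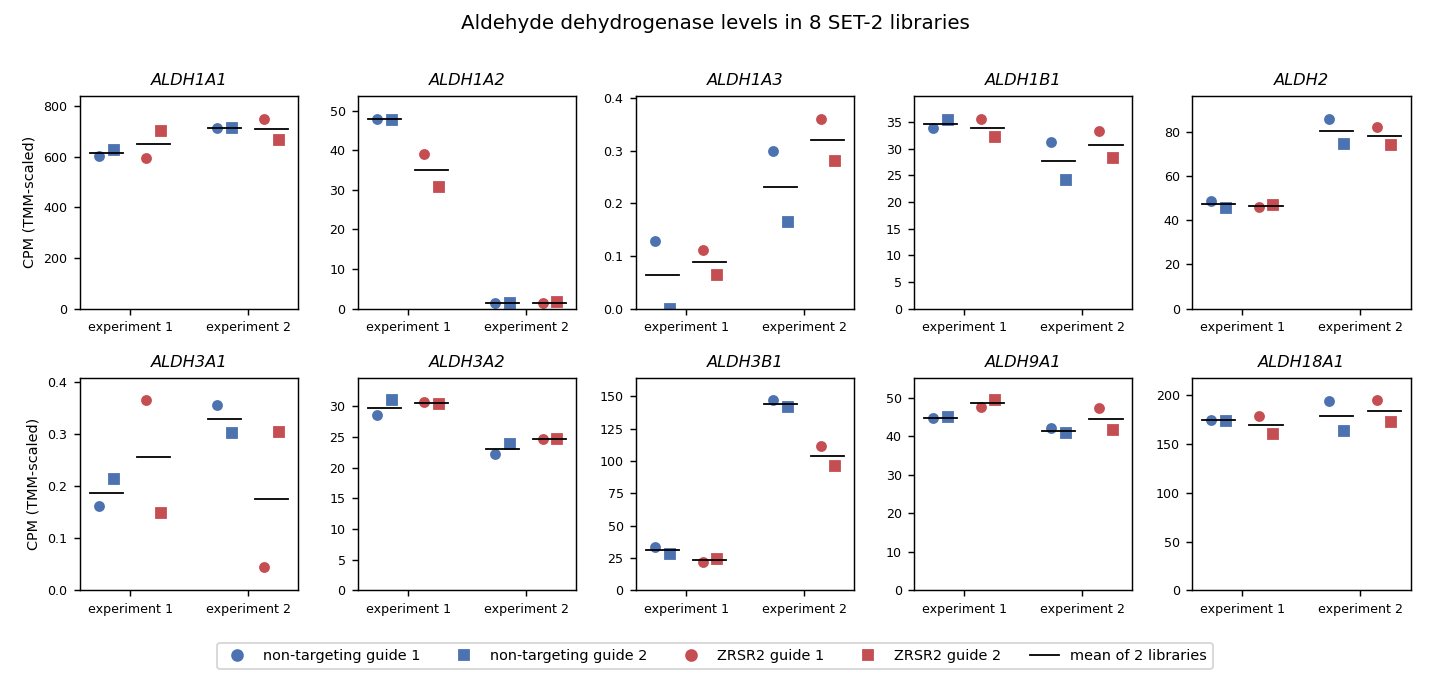
Level of each of the 10 ALDH genes in CPM (vertical axes, linear, from 0) by experiment, with 1 point per library, colour for the genotype, shape for the guide and a line at the mean of 2 libraries. ALDH1A2 stands between 30.7 and 48.0 CPM in experiment 1 and between 1.45 and 1.55 in experiment 2, and ALDH3B1 between 22.0 and 33.5 and between 96.2 and 147.

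The family spanned a wide range of levels. Per kilobase of the GENCODE 29 principal transcript, the mean level over 8 libraries was 319 CPM for ALDH1A1 and 52.6 for ALDH18A1. ALDH3B1 followed at 27.2 CPM per kilobase, but its libraries ranged from 7.9 to 52.8 and so overlapped the 47.6 to 58.1 of ALDH18A1. In experiment 1 its mean was 9.72, below the 17.3 of ALDH9A1, the 11.2 of ALDH1B1 and the 10.1 of ALDH1A2, and in experiment 2 it was 44.6, all in CPM per kilobase. ALDH9A1 averaged 16.6 CPM per kilobase and ALDH1B1 10.3. On that scale ALDH3A2 averaged 6.88, ALDH2 6.58 and ALDH1A2 5.23, and their library ranges overlapped. ALDH1A2 ranged from 0.354 to 11.7 CPM per kilobase. ALDH3A1 at 0.123 and ALDH1A3 at 0.0449 CPM per kilobase were the lowest. The place of ALDH2 depends on its long annotated transcript: per kilobase of coding sequence its mean level was 40.6 CPM, next after ALDH1A1, ALDH18A1 and ALDH3B1.

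Retinaldehyde dehydrogenases came out at very unequal levels. ALDH1A1, on chromosome 9, is the cytosolic retinaldehyde dehydrogenase whose activity is high in blood progenitors. In experiment 1 it was at 596 and 704 CPM in the knockout and 604 and 628 CPM in the control libraries. In experiment 2 the values were 751 and 666 CPM in the knockout and 715 and 715 CPM in the control libraries. The experiments overlapped, and the log2 fold change of experiment 2 over experiment 1 was 0.17 (SE 0.07), with an adjusted p of 0.0657 by edgeR's quasi-likelihood test. Leaving out knockout replicate 2 or knockout replicate 4 brought it past the threshold of 0.05, at adjusted p values of 0.0278 and 0.0419 by edgeR.

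ALDH1A2, on chromosome 15, is the main retinoic acid-producing enzyme of the early embryo. In experiment 1 it was at 39.1 and 30.7 CPM in the knockout libraries and 48.0 and 47.6 CPM in the control libraries. In experiment 2 it was at 1.49 and 1.55 CPM in the knockout and 1.45 and 1.46 CPM in the control libraries. All 4 libraries of experiment 1 were far above all 4 of experiment 2. The means were 41.3 ± 8.19 CPM (SD, n = 4) and 1.49 ± 0.0431 CPM (SD, n = 4), a 27.8-fold lower level in experiment 2. The ratio was 32.8 in the control libraries and 23.0 in the knockout libraries. These lower values rest on 53 to 102 counts per library, against 1394 to 1560 in experiment 1. The log2 fold change was −4.78 (SE 0.12), rank 11 from the lowest of 14898 tested genes, and this contrast chose the gene. In bulk RNA, fewer cells with a transcript and less of it per cell cannot be told apart.

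GENCODE places 14 other genes over ALDH1A2, 2 of which are in the table; both are named because of that position. AQP9, an aquaporin, never exceeded 1 count. LIPC, hepatic lipase, lies on the opposite strand. It was at 4.37 to 5.72 CPM in experiment 1 and 10.9 to 12.7 CPM in experiment 2, and rose by 1.27 on the log2 scale (SE 0.13, edgeR adjusted p = 1.62e-05). LIPC thus moved against ALDH1A2. Whether the authors' counting used strand is not stated, so reads shared between the pair cannot be told apart.

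ALDH1A3, also on chromosome 15, is the third enzyme of this branch and was close to the detection limit. It had 4, 3, 4 and 0 counts in knockout replicates 1 and 2 and control replicates 1 and 2. In experiment 2 it had 16 and 12 counts in the knockout and 21 and 6 in the control libraries. Its level was at most 0.129 CPM in experiment 1 and 0.165 to 0.361 CPM in experiment 2, where 3 counts correspond to 0.0428 to 0.0971 CPM over the libraries. The library with 0 counts allows up to 0.0915 CPM, counting error alone.

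Among the mitochondrial enzymes, ALDH2 rose between the experiments and ALDH1B1 did not pass the test. ALDH2, on chromosome 12, clears acetaldehyde. It was at 45.9, 46.9, 48.7 and 45.6 CPM in knockout replicates 1 and 2 and control replicates 1 and 2. In experiment 2 it was at 82.0 and 74.1 CPM in the knockout and 86.0 and 74.4 CPM in the control libraries, with no overlap. The rise was 1.69-fold, from 46.8 ± 1.39 to 79.2 ± 5.84 CPM (SD, n = 4 each), with a log2 fold change of 0.76 (SE 0.08) and an edgeR adjusted p of 1.92e-05. ALDH1B1, a close relative on chromosome 9, was at 32.1 to 35.6 CPM in experiment 1 and 24.1 to 33.2 CPM in experiment 2. Its log2 fold change was −0.23 (SE 0.10, edgeR adjusted p = 0.0776), and control replicate 4 had the lowest level. Without control replicate 3 it was −0.33, with an edgeR adjusted p of 0.00935.

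The lipid aldehyde enzymes moved in different directions. ALDH3B1, on chromosome 11, is a membrane-associated enzyme that oxidises aldehydes formed from lipids. In experiment 1 it was at 22.0 and 24.5 CPM in the knockout and 33.5 and 28.3 CPM in the control libraries. In experiment 2 it was at 112 and 96.2 CPM in the knockout and 147 and 142 CPM in the control libraries. Each library of experiment 2 exceeded each of experiment 1, and within either experiment both knockout libraries were below both controls. The rise between experiments was 4.59-fold, from 27.1 ± 5 to 124 ± 24.2 CPM (SD, n = 4 each). Its log2 fold change was 2.19 (SE 0.09, edgeR adjusted p = 1.30e-07). The ratio was 4.67 in control and 4.48 in knockout libraries.

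ALDH3A2, on chromosome 17, is the fatty aldehyde dehydrogenase that is defective in Sjögren-Larsson syndrome. Experiment 1 gave 30.8 and 30.4 CPM in the knockout and 28.6 and 31 CPM in the control libraries. Experiment 2 gave 24.7 and 24.7 CPM in the knockout and 22.2 and 23.9 CPM in the control libraries, all below experiment 1. The fall was small, with means of 30.2 and 23.9 CPM over 4 libraries each or −0.34 on the log2 scale (SE 0.08, edgeR adjusted p = 0.00373). ALDH3A1, best known from the cornea and stomach, had 2 to 25 counts per library, and no difference was detectable at this depth (log2 fold change 0.16, SE 0.53, edgeR adjusted p = 0.814).

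The enzymes with biosynthetic roles did not pass the test between experiments. ALDH9A1, on chromosome 1, acts in carnitine synthesis and was at 44.7 to 49.3 CPM in experiment 1 and 40.8 to 47.2 CPM in experiment 2. Its log2 fold change was −0.12 (SE 0.08, edgeR adjusted p = 0.197). ALDH18A1, on chromosome 10, starts proline synthesis from glutamate and was at 160 to 179 CPM in experiment 1 and 164 to 195 CPM in experiment 2. Its log2 fold change was 0.08 (SE 0.08, edgeR adjusted p = 0.426). Both genes overlapped between the experiments.

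In all, 3 of the 8 genes tested free of the choice passed the threshold between experiments, with 2 higher and 1 lower. Over all 14898 genes 58.2% passed in this comparison (29.6% higher and 28.6% lower), so the share among these genes is no larger than the background. Experiments did not overlap for 4 of 9 genes, including ALDH1A2, against 56% of all genes. The median log2 fold change was 0.08 over the 9 genes and 0.00 over all tested genes. ALDH2, ALDH3A2 and ALDH3B1 passed under each of the 13 alternatives run. The summed levels of erythroid markers were 1020 to 1140 CPM in experiment 1 and 1180 to 1810 CPM in experiment 2. Those of monocytic markers were 365 to 395 and 414 to 497 CPM, and those of megakaryocytic markers 2770 to 2980 and 2720 to 3430 CPM. The part of these markers in the ALDH differences was not tested.

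**Figure D2:**
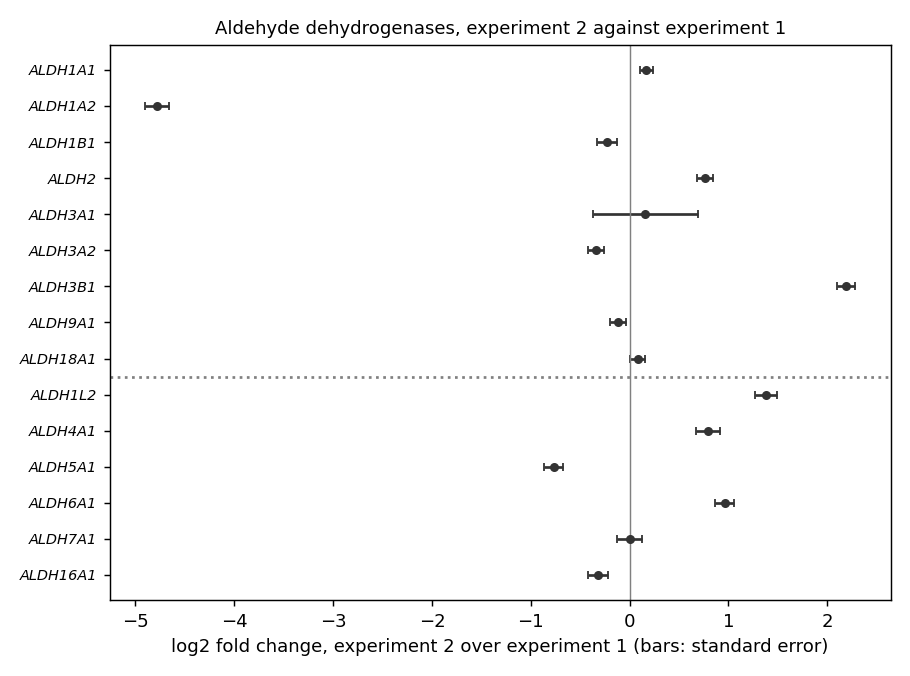
Log2 fold change of experiment 2 over experiment 1 (horizontal axis) for the 9 tested ALDH genes described here (above the dotted line) and 6 further tested family members (below it), with bars for the standard error. ALDH1A2 at −4.78 and ALDH3B1 at 2.19 lie farthest from 0.

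The question set by the study's design is what ZRSR2 guides change. ALDH3B1 was lower with ZRSR2 guides in both experiments, at 75.2% of the control mean in experiment 1 and 72.1% in experiment 2. The log2 fold change was −0.41 (SE 0.12) within experiment 1 and −0.47 (SE 0.12) within experiment 2, and these differed by −0.06 (SE 0.17). With the experiment as a replicate block it was −0.44 (SE 0.08), and −0.46 (SE 0.72) with genotype alone. In the blocked fit, guide 1 gave −0.42 (SE 0.11) and guide 2 gave −0.46 (SE 0.11). These values chose the gene, so they and the ranges that follow are description, carry no p and do not support the difference. Leaving out 1 library at a time gave −0.49 to −0.39 in the blocked fit, and −0.88 to −0.09 with genotype alone, where every omission leaves the experiments unbalanced. Over all libraries its genotypes overlapped, since both knockout libraries of experiment 2 were above the controls of experiment 1.

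For ALDH1A2, both libraries with ZRSR2 guides lay below both controls in experiment 1 and just above them in experiment 2. The means in experiment 1 were 34.9 ± 5.99 CPM with ZRSR2 guides and 47.8 ± 0.275 CPM with non-targeting guides (SD, n = 2 each), or 73.1% of control. The log2 fold change there was −0.45 (SE 0.13), with an unadjusted p of 0.00633 and an adjusted p of 1 in the edgeR fit, so it failed the correction. In experiment 2 it was 0.06 (SE 0.19, edgeR adjusted p = 0.998). The difference between those effects was 0.51 (SE 0.23, edgeR adjusted p = 1) and did not pass. With the experiment as a block the log2 fold change was −0.29 (SE 0.12, edgeR adjusted p = 1). It was −0.14 in the blocked fit without knockout replicate 2, the lowest library of experiment 1, and −0.35 without control replicate 3.

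The remaining members did not pass the test between the genotypes either. With genotype alone, log2 fold changes were 0.03 (SE 0.10) for ALDH1A1, 0.05 (SE 0.14) for ALDH1B1 and −0.03 (SE 0.27) for ALDH2. ALDH3A2 gave 0.07 (SE 0.14), ALDH9A1 0.11 (SE 0.09) and ALDH18A1 0.00 (SE 0.09). For ALDH3A1, with its few counts, it was −0.31 (SE 0.57). Every one of these had an adjusted p of 1 by edgeR, and the signs of all but ALDH9A1 depended on which library was left out. Each omission leaves the experiments unbalanced in this fit, so a change of sign cannot be read as an unstable genotype effect. The spread in this fit also includes the difference between the experiments, which widens the SE of genes that differ between them. With the experiment as a block, log2 fold changes of the 9 tested members ran from −0.44, that of ALDH3B1, to 0.11. In that fit 0 of the 8 with a test passed.

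**Figure D3:**
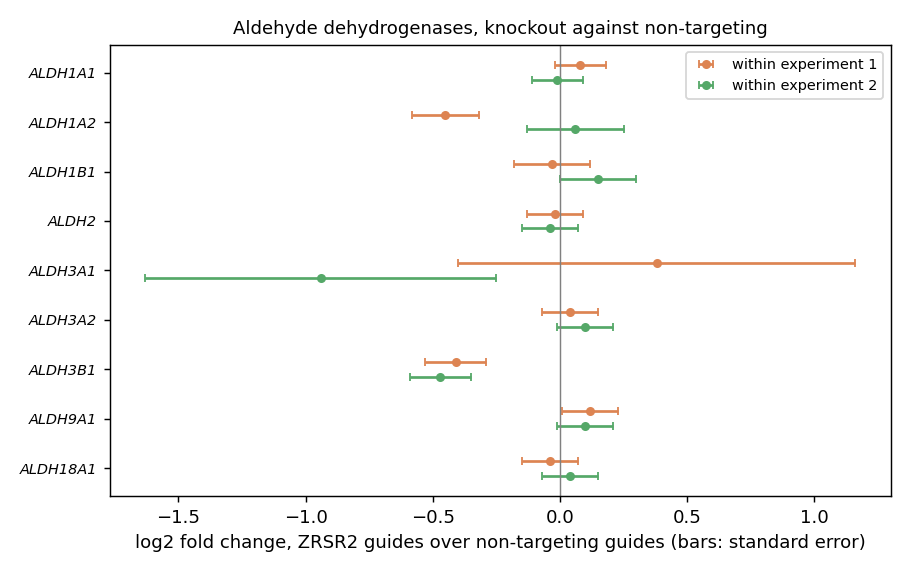
Log2 fold change of ZRSR2 guides over non-targeting guides (horizontal axis) for the 9 tested ALDH genes, within experiment 1 and within experiment 2, with bars for the standard error. ALDH3B1 lies at −0.41 and −0.47, and ALDH1A2 at −0.45 and 0.06.

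By edgeR, 0 of the 8 genes with a test passed between genotypes, and 0 had an unadjusted p under 0.05. Over all genes 0% passed with edgeR, 89 (0.597%) had an unadjusted p under 0.05, and DESeq2 called 4. With the block, 1 of the 8 (ALDH1A2) had an unadjusted p under 0.05, edgeR called 0 of all genes, 690 (4.63%) had an unadjusted p under 0.05, and DESeq2 called 31; none of the 8 was among those that DESeq2 called. The genotypes overlapped over all libraries for each of the 9 genes, where 0.678% of all genes did not. Within experiment 1 the genotypes were apart for 3 of 9 genes (ALDH9A1 higher, ALDH1A2 and ALDH3B1 lower), against 36.4% of all genes. Within experiment 2 they were apart for 3 of 9 (ALDH1A2 and ALDH3A2 higher, ALDH3B1 lower), against 23.5%. For ALDH1A2 the values there were 1.49 and 1.55 CPM against 1.45 and 1.46 CPM, on 53 to 102 counts per library. That gap is too small to be told from counting error. ALDH3B1, chosen for this contrast, was the 1 gene apart in the same direction in both, where 5.73% of all genes were. With ZRSR2 guide 2 alone, edgeR called 0 genes without the block and 10 (0.0671%) with it. In that blocked fit ZRSR2 fell by 0.93 on the log2 scale (SE 0.12, edgeR adjusted p = 0.0118), and 0 of the 8 tested ALDH genes passed. Over both guides, ZRSR2 itself did not pass by edgeR, with genotype alone or with the block. Of its 15 alternatives 1 passed, DESeq2 with the block (adjusted p = 5.38e-04). The main test thus missed the targeted gene, so a lack of calls in it does not show that a gene was unchanged.

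Other family members were also compared, from a list of 9 of which 6 were tested. Between experiments 3 rose and 2 fell, where 58.2% of all genes passed. ALDH1L2, the mitochondrial folate enzyme, rose by 1.38 on the log2 scale (SE 0.11, edgeR adjusted p = 5.00e-06), from 10 ± 2.81 to 25.8 ± 3.87 CPM (SD, n = 4 each). ALDH6A1, of valine breakdown, rose by 0.96 (SE 0.10, edgeR adjusted p = 1.67e-05), and ALDH4A1, of proline breakdown, by 0.79 (SE 0.12, edgeR adjusted p = 2.16e-04). ALDH5A1, which oxidises succinic semialdehyde, fell by 0.77 (SE 0.10, edgeR adjusted p = 6.16e-05). ALDH16A1 fell by 0.32 (SE 0.10, edgeR adjusted p = 0.0177), but it no longer passed without knockout replicate 1, control replicate 2 or knockout replicate 4, with edgeR adjusted p values of 0.0536, 0.0555 and 0.062. ALDH7A1, of lysine breakdown, was at 0.00 (SE 0.13, edgeR adjusted p = 0.982). ALDH1L1, ALDH3B2 and ALDH8A1 had too few counts to be tested.

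None of the 6 passed between genotypes with edgeR (0 with an unadjusted p under 0.05, 1 with the block), nor with DESeq2. That 1 was ALDH1L2, the opposite of ALDH3B1 in direction. The knockout libraries had 10, 14, 29.8 and 28.3 CPM and the controls 8.19, 7.87, 23.5 and 21.6 CPM, in the order of their numbers. Within both experiments its knockout libraries were above the controls, where 5.73% of all genes were apart in the same direction in both. ALDH7A1 did the same, at 6.18, 7.69, 7.03 and 7.33 CPM in the knockout and 6.02, 5.98, 5.35 and 6.38 CPM in the control libraries. With the block the log2 fold change of ALDH1L2 was 0.46 (SE 0.11, edgeR adjusted p = 0.503), and adjusted p values over its alternatives ran from 0.0514 to 1.

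Genes of retinoid metabolism were compared beside ALDH1A2. Of 25 listed genes 19 were tested between experiments: 7 rose, 6 fell and 6 did not pass, where 58.2% of all genes passed. The median log2 fold change was −0.11, against 0.00 over all genes. RDH10, which supplies retinaldehyde from retinol, fell 4.6-fold from 97.2 ± 6.15 to 21.1 ± 1.89 CPM (SD, n = 4 each; log2 fold change −2.20, SE 0.09, edgeR adjusted p = 1.30e-07). DHRS3, which returns retinaldehyde to retinol, rose from 72.4 ± 4.64 to 153 ± 23.1 CPM (log2 fold change 1.07, SE 0.08, edgeR adjusted p = 2.44e-06). DHRS9, another short-chain dehydrogenase, rose from 11.1 ± 1.21 to 33.1 ± 3.99 CPM (log2 fold change 1.58, SE 0.11, edgeR adjusted p = 1.82e-06). CRABP1, a retinoic acid-binding protein, rose from 1.79 ± 0.141 to 7.29 ± 0.894 CPM (log2 fold change 2.03, SE 0.15, edgeR adjusted p = 2.32e-06).

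Further genes of this list are named after their values were seen. STRA6, the retinol uptake receptor, rose by 2.19 on the log2 scale (SE 0.17, edgeR adjusted p = 3.94e-06). CYP26A1, which degrades retinoic acid, had 2 to 7 counts in experiment 1 and 18 to 41 in experiment 2 (log2 fold change 2.34, SE 0.52, edgeR adjusted p = 0.00277). CYP26B1, with the same role and a higher count, fell by 0.74 (SE 0.23, edgeR adjusted p = 0.0191), from 6.68 ± 1.04 to 4.02 ± 1.32 CPM (SD, n = 4 each), with 1 library of experiment 2 above the lowest of experiment 1. It did not pass without knockout replicate 1 or control replicate 3 (edgeR adjusted p = 0.0825 and 0.0662), and the log2 fold change was −0.49 without knockout replicate 3. The receptors RARA, RARB and RARG fell by 0.37, 1.08 and 0.68 (SE 0.08, 0.25 and 0.12; edgeR adjusted p = 0.00289, 0.00369 and 7.48e-04). RARB stood at 1.42 CPM or less in every library. Of their partner receptors RXRB rose by 0.59 (SE 0.07, edgeR adjusted p = 4.11e-05), and RXRA was at −0.11 (SE 0.11, edgeR adjusted p = 0.44). Between genotypes 0 of the 19 passed by edgeR, 1 had an unadjusted p under 0.05 and DESeq2 called 0.

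**Figure D4:**
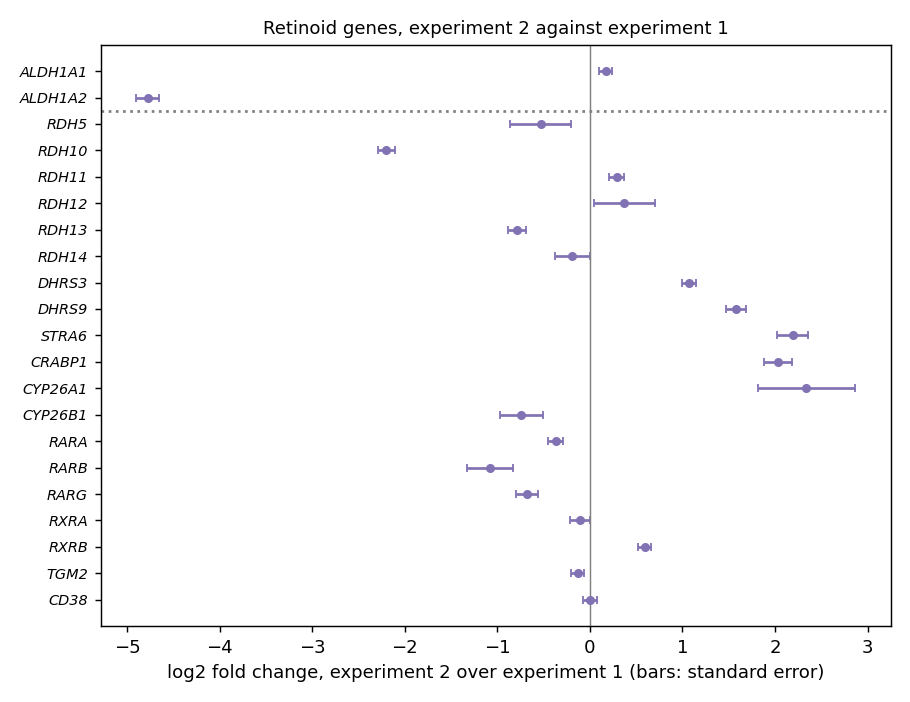
Log2 fold change of experiment 2 over experiment 1 (horizontal axis) for ALDH1A1 and ALDH1A2 (above the dotted line) and the 19 tested genes of the retinoid list (below it), with bars for the standard error. RDH10 at −2.20 lies on the side of ALDH1A2, and STRA6 at 2.19 and CYP26A1 at 2.34 on the opposite side.

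The genes whose profile was nearest to each of the variable members were found by the root mean square (RMS) difference of centred log2 CPM over 8 libraries, among 13148 genes. For ALDH1A2 these were CCL2, a monocyte chemokine, at 0.31, SERPINB2 at 0.41, SLC37A2 at 0.42, GZMB, granzyme B, at 0.54, and SERPIND1 at 0.55. CCL2 was at 5.79 to 11.7 CPM in experiment 1 and 0.157 to 0.361 CPM in experiment 2. SERPINB2, SERPIND1 and GZMB were at most 0.0937, 0.113 and 0.18 CPM in experiment 2, close to the floor. These genes and CCL2 met the minimum mean of 1 CPM through experiment 1 alone, so that a likeness to ALDH1A2, itself chosen for that contrast, was built in. SLC37A2 was at 19.2 to 21.2 CPM in experiment 1 and 0.584 to 1.52 CPM in experiment 2, so it too met the minimum mainly through experiment 1. For ALDH3B1 they were FAM20C, a kinase of secreted proteins, at 0.14, BAI2 at 0.17, YPEL1 at 0.17, APLNR, the apelin receptor, at 0.18, and MAPK13 at 0.19. FAM20C was at 1.24 to 2.33 CPM in experiment 1 and 6.70 to 8.45 CPM in experiment 2. BAI2 was at 0.674 to 1.04 CPM in experiment 1 and 3.76 to 5.47 CPM in experiment 2. It thus met the minimum mean through experiment 2, where ALDH3B1 was also higher. All 10 shared the same 8 libraries, so the likeness describes mainly the difference between the experiments.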

How the data were processed

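The authors deposited RSEM expected counts per gene symbol for 8 libraries; per the submitters' processing notes cutadapt 1.11, RSEM 1.2.30 and build hg19 were used. The aligner, annotation and use of strand are not given in the sources used here. The expected counts were whole numbers, so rounding changed 0 values. The filterByExpr filter kept 14898 genes. Each comparison used edgeR's quasi-likelihood F test with TMM scaling and Benjamini-Hochberg adjustment over all tested genes at 0.05; standard errors come from the F statistic. Knockout was fitted with genotype alone, and again with the experiment as a replicate block; effects within experiments, and between them, came from a fit of genotype by experiment. The experiment number pairs libraries: deviations from genotype means correlated at 0.68 to 0.85 in the 8 knockout-control pairs of one experiment, and at −0.82 to −0.71 in the 8 pairs across experiments. All libraries differed by more than sampling noise (smallest chi-square per degree of freedom 3.06).

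CPM uses TMM-scaled totals, where 1 count is 0.0143 to 0.0324 CPM, and log2 CPM a prior count of 2. GENCODE 29 and RefSeq are on GRCh38, so lengths and overlaps are of that build. The fits were also run on simulated data in which every gene had the same spread, a simpler setting than these data. That run therefore does not show how many real changes the fits would find. Software was R 4.3.3, edgeR 4.0.16, DESeq2 1.42.0, Python 3.11.15 and matplotlib 3.10.9. The members, lists and tests were chosen with earlier results of these data known. Named were ZRSR2, the 10 members, up to 4 genes of smallest p past the threshold per list and comparison, and the 5 nearest profiles, among genes averaging at least 1 CPM, for ALDH1A2 and for ALDH3B1; others are said to have been chosen later. Alternatives were DESeq2, its size factors, library totals alone, no filter, at least 10 counts in every library, the block, and leaving out each library. The result of 1 gene of the lists is not reported here.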

Additional observations from a re-analysis of the deposited data

Results flagged for a closer look

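The total of control replicate 3 was 71521173 expected counts, while the other control libraries held 31106042 to 36544665. Its gap to the nearest control exceeded Dixon's 95% critical value for 4 samples. Of 44 groups of 4 libraries checked, 1 stood out in this way, and chance flags about 1 in 20 such groups. Without this library, ALDH2, ALDH3A2 and ALDH3B1 passed between experiments by edgeR as they did with it, and ALDH1B1 also passed.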

How the results depend on the processing

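Over 69 results and 943 alternatives, 879 were labelled as the same. For single genes this meant the same direction and side of the threshold or, where no p is given, a shift smaller than the spread. For counts of calls it meant a count close to that of the main fit, or 0 in both fits. Library totals alone, counts of calls per list, the list genes named, and the block combined with leaving out a library were added after seeing the data. Genes called between genotypes numbered 0 with edgeR and 0 with the replicate block, 4 with DESeq2 and 31 with DESeq2 and the block. Within experiment 1 they numbered 40 with no filter, 5 with DESeq2 and 0 to 2 when 1 library was left out; within experiment 2, 116, 13 and 0 to 154, the last without control replicate 3. The difference of those effects had 5 with no filter. Guide 2 against non-targeting had 2 with DESeq2 and 10 with the block. With no filter 5 ALDH genes passed between experiments (ALDH1A1 and ALDH1A3 besides those named above), and 3 to 4 when 1 library was left out. The NRF2 list had 2 to 7 against 6. The causes were not tested. ALDH18A1 between genotypes was −0.00 with DESeq2 size factors, DESeq2, the block, and DESeq2 with the block. When 1 library was left out, genotype log2 fold changes ran from −0.02 to 0.09 for ALDH1A1, −1.12 to 0.12 for ALDH1A2, −0.04 to 0.12 for ALDH1B1, −0.19 to 0.15 for ALDH2, −0.67 to 0.03 for ALDH3A1, −0.01 to 0.15 for ALDH3A2 and −0.05 to 0.05 for ALDH18A1. Those genotype fits held genotype alone, so every omission left the experiments unbalanced. Between experiments ALDH3A1 ran from −0.78 to 0.57, ALDH7A1 from −0.07 to 0.09 and RXRA from −0.24 to 0.01. The block changed no call of an ALDH gene. Scaling moved the median of all genes by at most 0.03 on the log2 scale. Depth limits ALDH1A3 and ALDH3A1, which had at most 25 counts in a library.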

Other observations

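Genes that share pathways with the ALDH enzymes were also compared between the experiments, from lists of which only counts and values are given. In this comparison 58.2% of all tested genes passed, and the counts below are to be read against that share, from which no difference was tested. Of 7 tested genes of proline and ornithine synthesis, 2 rose and 2 fell. PYCRL, a pyrroline-5-carboxylate reductase downstream of ALDH18A1, fell from 9.42 ± 1.30 to 2.88 ± 0.238 CPM (SD, n = 4 each; log2 fold change −1.71, SE 0.14, edgeR adjusted p = 5.65e-06). ASS1, argininosuccinate synthase, rose from 4.11 ± 0.462 to 11.9 ± 2.62 CPM (log2 fold change 1.52, edgeR adjusted p = 8.49e-06). ARG2, the mitochondrial arginase, rose from 24.6 ± 9.25 to 85.3 ± 52.6 CPM (log2 fold change 1.74, edgeR adjusted p = 1.47e-04).

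Of 12 tested other enzymes of aldehyde and alcohol handling, 5 rose and 4 fell. The aldo-keto reductases differed in direction: AKR7A2 rose by 1.23 on the log2 scale (edgeR adjusted p = 2.50e-06) and AKR1A1 by 0.75 (edgeR adjusted p = 4.34e-05), while AKR1B1 fell by 1.00 (edgeR adjusted p = 3.86e-04). SGPL1, which releases a fatty aldehyde from sphingosine phosphate, fell by 0.55 (edgeR adjusted p = 6.93e-04). Of 10 NRF2 target genes, 3 rose and 3 fell, but 2 passed without knockout replicate 1 or control replicate 2, and 3 without knockout replicate 4 or control replicate 1. HMOX1, haem oxygenase, rose by 0.82 (edgeR adjusted p = 3.61e-05), and NQO1, a quinone reductase, fell by 0.43 (edgeR adjusted p = 0.0199). NQO1 did not pass without knockout replicate 1, knockout replicate 4, control replicate 2 or control replicate 4 (edgeR adjusted p = 0.0617, 0.0673, 0.0777 and 0.058). Between genotypes 0 genes of these lists passed with edgeR or DESeq2. With genotype alone 1, of the NRF2 list, had an unadjusted p under 0.05 by edgeR. With the block, 2 of the proline and ornithine list and 1 of the NRF2 list did, against 4.63% of all genes.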
